A study of Mus musculus with 4 samples.

Results

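The genes described here encode 39 nucleolar proteins that make ribosomes, followed in laser-captured intestinal crypts of control mice and of mice that had lost the beta-catenin gene Ctnnb1. Members were taken from a list of 39 symbols, and each was read from the probe set that carried its symbol alone and had the highest mean signal over the 4 arrays. All 39 had such a probe set, out of 18193 genes on the array that did. The study held 4 single-colour arrays, 2 from control crypts and 2 from mutant crypts. The mutant mice had been given tamoxifen to delete the gene and were sampled at day 2. The sources used here do not name the Cre driver, the strain or the age, or say whether controls also received tamoxifen. They also leave unsaid whether the replicates of a group are different animals. The p-values then reflect only how far these samples varied, and that variation may be technical. In such bulk samples, fewer dividing cells and less RNA per cell cannot be told apart.

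Ribosomes are assembled in the nucleolus. RNA polymerase I transcribes the ribosomal RNA precursor, small nucleolar ribonucleoproteins (snoRNPs) guide its chemical modification, and large assemblies of processing factors then fold and cleave it into the parts of the small and the large subunit. The work is costly, and its genes are typically expressed most in growing and dividing cells, which in the intestine are the stem cells and progenitors of the crypt. Many of these genes are known targets of the transcription factor Myc, itself a target of Wnt and beta-catenin signalling.

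Levels are log2(intensity + 5) after quantile normalization, called log2 signal, and are compared only within a probe set. Most of the 39 genes had a lower mean level in the mutant crypts, and none passed the test across all probe sets. The mutant mean was below the control mean for 35 genes (89.7%), against 49.3% of the 11395 genes kept by the filter on dim signals, which all 39 members passed. For 28 members (71.8%) both mutant arrays lay below both control arrays. The same was true of 19.2% of all genes kept, and the opposite arrangement, found in 0 members, was true of 18.9%. The median difference, mutant minus control, was -0.66 on the log2 scale over the members and 0.01 over all genes. The test was limma, with Benjamini-Hochberg adjustment over 22519 probe sets. It called 0 members and 0 probe sets (0%), with adjusted p between 0.767 and 0.990 over the members. At an unadjusted p under 0.05 there were 1415 probe sets. By that unadjusted limit 12 members (30.8%) were lower, against 3.62% of all genes. At least 2-fold lower were 7 members (17.9%), against 2.66% of all genes. A stricter description asks that the difference between groups exceed the gap between the arrays of either group. That held for 18 members (46.2%), all lower in the mutants, against 12.9% of all genes. The members were chosen with earlier results of these data known, so these shares describe the list and do not test it.

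**Figure D1:**
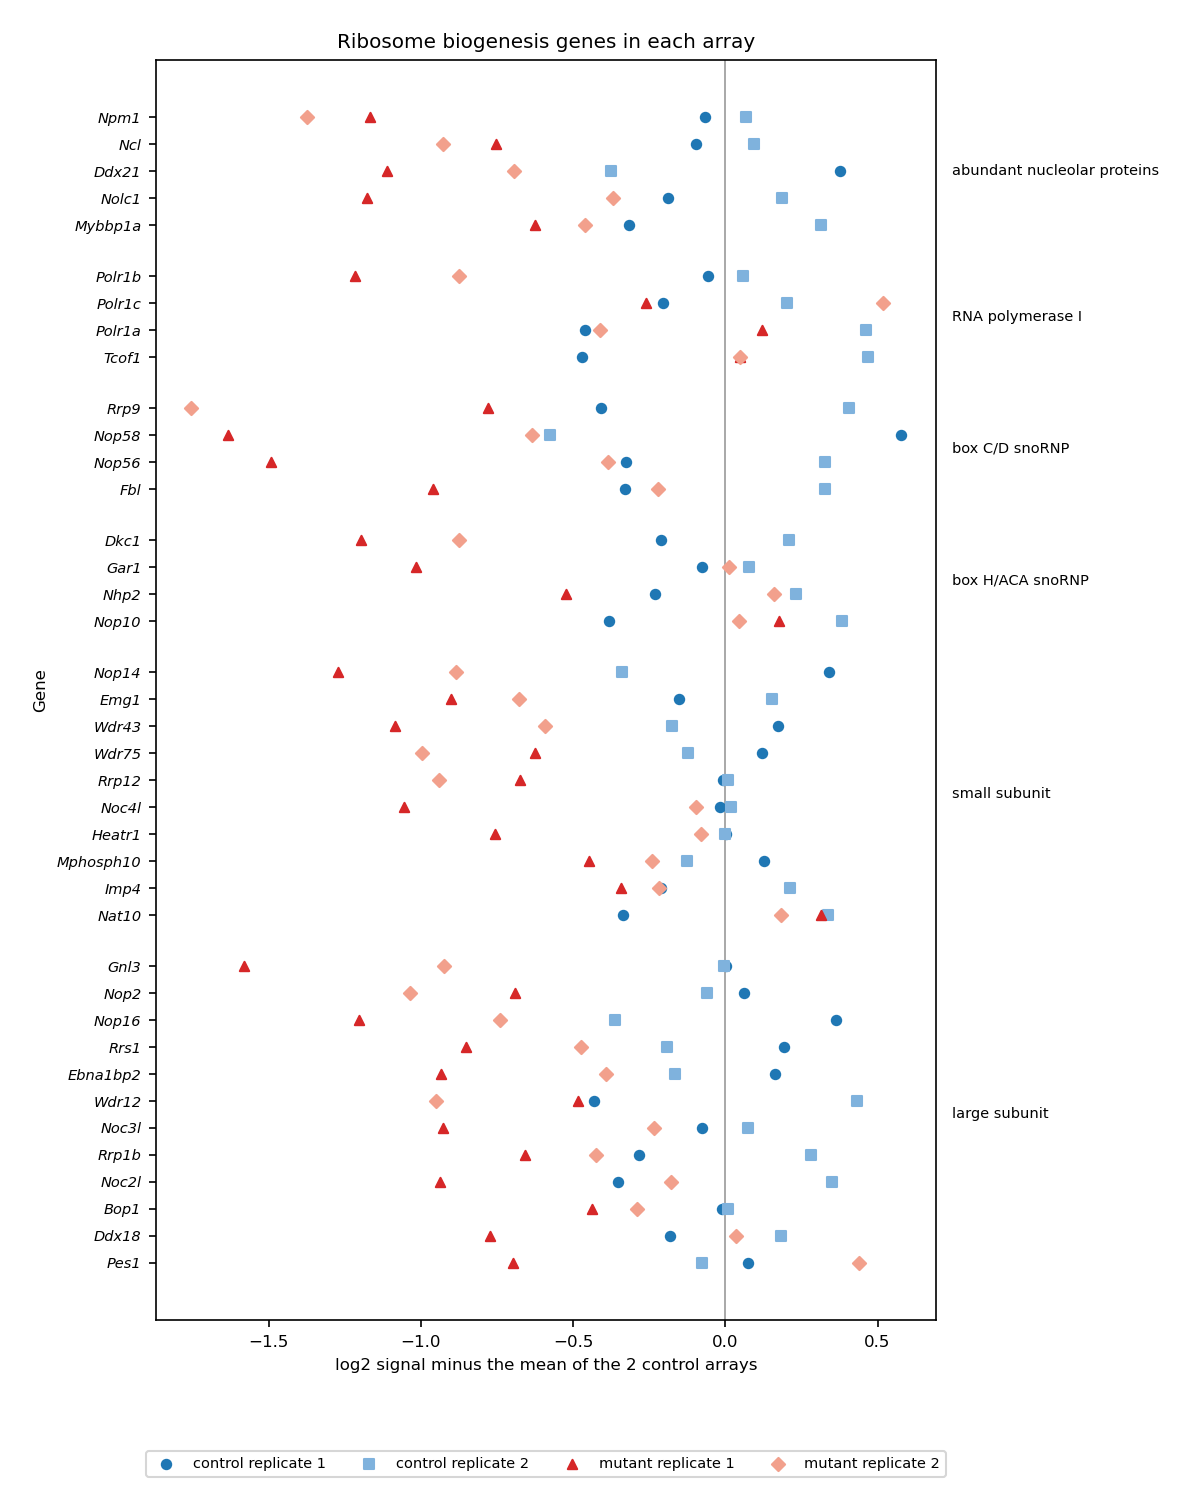
Log2 signal of each of the 39 genes in each array, minus the mean of that gene in the 2 control arrays, with genes grouped by role; each point is 1 array. In 28 genes both mutant points lie to the left of both control points, and the point of mutant replicate 1 is the leftmost of the 4 in 28 genes.

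Epithelial transcripts were present in all 4 arrays: all 10 epithelial markers passed the filter, and their mean log2 signal lay between 11.01 and 11.18. Mutant replicate 1 also held pancreatic transcripts. The 15 measured pancreatic acinar genes had a mean log2 signal of 12.15 in that array and 4.83 to 5.20 in the others. Their summed intensity was 103411 against 1671 to 7092. All 15 passed the filter, but it uses the mean over the 4 arrays and so counts that array. Clps and Reg1 were high elsewhere too. Clps read 10.13 and 10.43 in control crypts and 10.02 in mutant replicate 2, and Reg1 12.79, 11.61 and 9.53. The part of the pancreatic transcripts in the results was not tested. Enterocyte markers had mean log2 signals of 11.00 and 9.97 in control crypts and 11.05 and 9.89 in mutant crypts, so they followed the replicate number rather than the genotype. Markers of fibroblasts and smooth muscle had mean log2 signals of 7.09 and 7.72 in control crypts and 7.72 and 7.80 in mutant crypts. Of these 12 markers, 9 had a higher mean in mutant crypts and 3 a lower one. Over the 4 arrays, markers of immune cells had mean log2 signals of 6.40 to 7.24 and those of endothelium 4.75 to 4.95, the last near the filter limit of 4.79. Single markers were far above these means in every array. Jchain, of the immune list, read 12.77 to 13.17 and Acta2, of the fibroblast and smooth muscle list, 10.01 to 11.00. The 5' to 3' signal ratio of beta-actin, which drops as RNA gets shorter, was 0.149 and 0.0567 in control crypts and 0.0945 and 0.0448 in mutant crypts. Ctnnb1 itself had log2 signals of 12.43 and 12.56 in control crypts and 12.02 and 11.85 in mutant crypts (difference -0.56, SE 0.22, limma adjusted p = 0.786), and which exons were deleted is not stated, so this probe set may not check the labels.

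The members varied between arrays of the same group as well. Mutant replicate 1 was the lowest of the 4 arrays for 28 members and mutant replicate 2 for 7. Control replicate 2 was the highest for 25 and control replicate 1 for 12. Within genes, mutant replicate 1 was below mutant replicate 2 for 29 members, with a median difference of -0.38, against -0.002 over all genes kept. Control replicate 1 minus control replicate 2 had a median of -0.16 over the members and -0.10 over all genes kept. Without mutant replicate 1 the median difference was -0.40, with 31 of 39 members lower. In that comparison the remaining mutant array was below both controls for 28 members (71.8%) and for 33.9% of all genes. Without mutant replicate 2 the median difference was -0.80.

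Genes of the abundant nucleolar proteins all had the same direction. All 5 were lower in the mutants without overlap of the groups, against 19.2% of all genes kept, and their median difference was -0.84. With values as deposited 4 of the 5 were lower without overlap, and with median centring 2, with all 5 lower in both. Npm1 encodes nucleophosmin, a histone and ribosome chaperone that forms the outer layer of the nucleolus. Its log2 signal was 12.21 and 12.35 in control crypts and 11.11 and 10.91 in mutant crypts. As deposited, the intensities stood at 4120 and 5149 in control crypts and 2844 and 1662 in mutant crypts. The groups were far apart against the gaps within them, and the controls were 2.41-fold higher (difference -1.27, SE 0.24, limma adjusted p = 0.767). Leaving out each array in turn moved this difference only between -1.40 and -1.13. A second Npm1 probe set read 9.85 and 9.50 in control crypts and 8.33 and 8.18 in mutant crypts, a difference of -1.42 (SE 0.33).

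Ncl encodes nucleolin, an RNA-binding protein of early ribosomal RNA processing. Its log2 signal was 9.74 and 9.93 in control crypts and 9.08 and 8.91 in mutant crypts (difference -0.84, SE 0.31, 1.79-fold). Each of its 3 further probe sets above the filter also had a lower mean in mutant crypts. Their differences were -1.17 (SE 0.38) without overlap, and -0.69 (SE 1.16) and -0.65 (SE 0.42) with overlapping groups. The probe set with -0.69 read 7.98 and 3.96 in control crypts and 4.28 and 6.28 in mutant crypts. The RNA helicase gene Ddx21, whose product couples polymerase I transcription to processing, read 9.26 and 8.51 in control crypts and 7.77 and 8.19 in mutant crypts (difference -0.90, SE 0.39). Here control replicate 2 stood only a little above mutant replicate 2, and the difference was -0.35 without control replicate 1. A second Ddx21 probe set gave -0.15 (SE 0.42) with overlapping groups. Nolc1, a chaperone of snoRNPs, differed by -0.77 (SE 0.40) and Mybbp1a, a nucleolar regulator of transcription and processing, by -0.54 (SE 0.36).

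**Figure D2:**
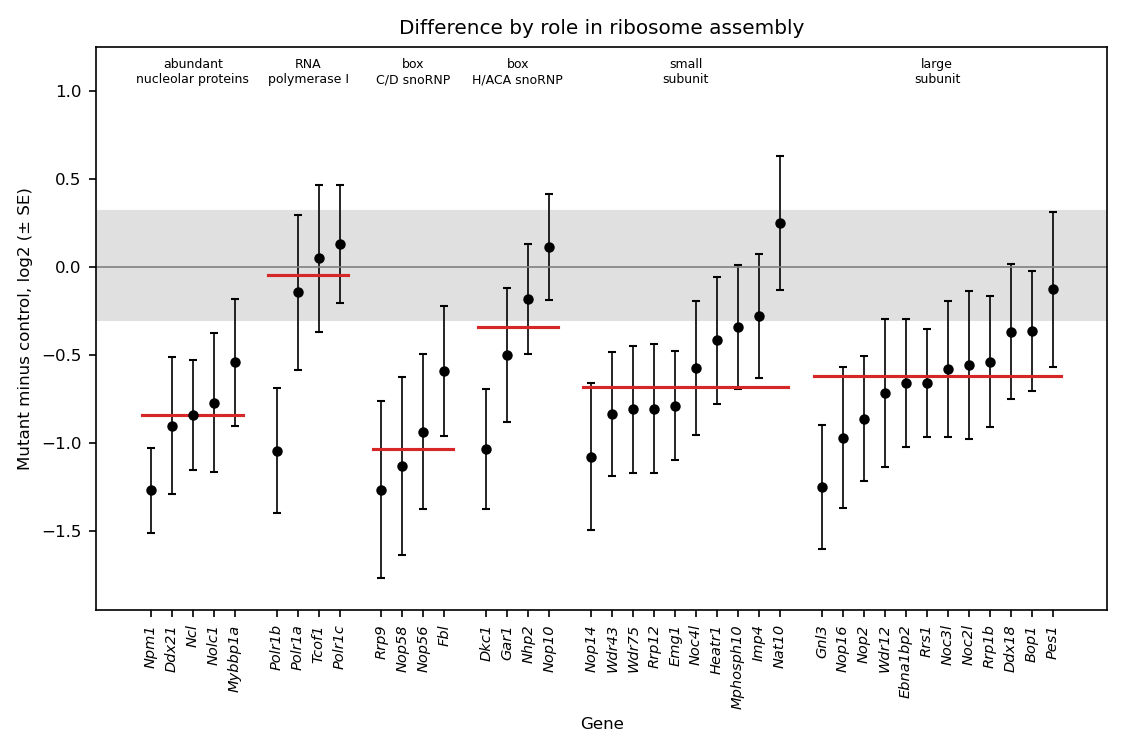
Difference between the means of 2 mutant and 2 control arrays (log2, points) with the limma SE (bars) for each gene, grouped by role and sorted within it; red lines are class medians and the grey band holds all 11395 genes between the lower and the upper quartile. The class medians are -0.84 for abundant nucleolar proteins, -0.05 for RNA polymerase I, -1.04 for box C/D, -0.34 for box H/ACA, -0.68 for the small and -0.62 for the large subunit.

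Genes of RNA polymerase I did not share 1 direction in the probe sets used here, with 2 of 4 lower. Polr1b, the second largest subunit of the enzyme, read 7.67 and 7.78 in control crypts and 6.51 and 6.85 in mutant crypts. Both mutant arrays were well below both controls, a 2.06-fold difference (-1.05, SE 0.35, limma adjusted p = 0.767). Polr1a, which encodes the largest subunit, read 5.91 and 6.84 in control crypts and 6.50 and 5.97 in mutant crypts. The mutant values lay between the control values (difference -0.14, SE 0.44). Polr1c, a subunit shared with RNA polymerase III, read 10.65 and 11.06 in control crypts and 10.60 and 11.37 in mutant crypts, again overlapping (difference 0.13, SE 0.34). Tcof1 encodes treacle, a polymerase I cofactor, and differed by 0.05 (SE 0.42), or by -0.06 with the values as deposited. The class median was -0.05. Leaving out control replicate 1 moved it to -0.53, and leaving out control replicate 2 to 0.32. With the mean of all kept probe sets of a gene, all 4 were lower and the median was -0.30, so the divided direction depended on the choice of probe set.

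The 4 genes of the box C/D snoRNPs, which guide methylation of ribosomal RNA, were all lower, with a class median of -1.04. Rrp9 encodes a protein that binds the snoRNA of the first cleavages of the small subunit RNA. It read 5.70 and 6.51 in control crypts and 5.32 and 4.35 in mutant crypts (difference -1.27, SE 0.50, limma adjusted p = 0.786), with mutant replicate 2 under the filter limit of 4.79. Nop58, a core scaffold protein, read 8.41 and 7.26 in control crypts and 6.20 and 7.20 in mutant crypts. Control replicate 2 and mutant replicate 2 nearly coincided, so the difference of -1.13 (SE 0.51) became -0.58 without control replicate 1. Its partner Nop56 read 9.44 and 10.09 in control crypts and 8.27 and 9.38 in mutant crypts. Mutant replicate 2 was just under control replicate 1, and the difference of -0.94 (SE 0.44) became -0.39 without mutant replicate 1. A second Nop56 probe set read 8.19 and 6.71 in control crypts and 6.26 and 7.71 in mutant crypts, with overlap (-0.46, SE 0.61). The methyltransferase gene Fbl (fibrillarin) read 10.25 and 10.90 in control crypts and 9.62 and 10.35 in mutant crypts, so that the groups overlapped (difference -0.59, SE 0.37). A second Fbl probe set read 10.46 and 9.94 in control crypts and 8.54 and 9.59 in mutant crypts without overlap (-1.14, SE 0.41). Without mutant replicate 1 the class median was -0.51, with all 4 genes still lower.

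Among the 4 proteins of the box H/ACA snoRNPs, which guide pseudouridine formation, Dkc1 was the 1 gene whose groups did not overlap. Dkc1 encodes dyskerin, the enzyme of the particle and a component of telomerase. It read 9.31 and 9.73 in control crypts and 8.32 and 8.64 in mutant crypts, a 2.05-fold difference (-1.04, SE 0.34, limma adjusted p = 0.767). Its 2 further probe sets gave -0.92 (SE 0.42) and -0.89 (SE 0.46), both without overlap. The 3 small partner proteins overlapped between groups. Gar1 read 10.31 and 10.47 in control crypts and 9.37 and 10.40 in mutant crypts. Only mutant replicate 1 was outside the other values, and the difference of -0.50 (SE 0.38) was 0.01 without it. Nhp2 read 11.32 and 11.78 in control crypts and 11.02 and 11.71 in mutant crypts (difference -0.18, SE 0.31). As deposited it stood at 0.06, and after median centring at 0.18, on the other side of 0. A dimmer Nhp2 probe set gave -0.95 (SE 0.37) without overlap. Nop10 differed by 0.11 (SE 0.30). The class median was -0.34. It was 0.03 without mutant replicate 1, -0.02 with median centring, -0.13 with values as deposited and -0.19 without control replicate 2. It was further from 0 under other settings, at -0.50 without control replicate 1, -0.75 without mutant replicate 2 and -0.53 with the mean of all kept probe sets. All 4 genes were lower in the first and the last of these 3. Whether Dkc1 differed from its partners in its response was not tested.

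Factors of the small subunit were lower in 9 of 10 genes, in all 9 without overlap, with a median of -0.68. Nop14 belongs to the small subunit processome, the large particle in which the early precursor is folded and cut. It read 6.69 and 6.01 in control crypts and 5.08 and 5.46 in mutant crypts, 2.11-fold apart (-1.08, SE 0.42, limma adjusted p = 0.786). The methyltransferase gene Emg1 read 10.06 and 10.37 in control crypts and 9.31 and 9.54 in mutant crypts. The difference between groups exceeded the gap within either (difference -0.79, SE 0.31). Wdr43, which joins the precursor during transcription, read 9.40 and 9.05 in control crypts and 8.14 and 8.63 in mutant crypts (difference -0.84, SE 0.35). A second Wdr43 probe set gave only -0.09 (SE 0.36). Wdr75, of the same processome module, and Rrp12, an export factor, both differed by -0.81, with SE of 0.36 and 0.37.

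The groups lay closer for the remaining small subunit genes. Noc4l, which works with Nop14, differed by -0.58 (SE 0.38) and the processome scaffold gene Heatr1 by -0.42 (SE 0.36). Mutant replicate 2 was close to the controls in both, at 9.78 against 9.86 and 9.90 for Noc4l and at 9.07 against 9.15 and 9.15 for Heatr1. Without mutant replicate 1 the differences were -0.10 and -0.08. A second Heatr1 probe set went the other way, at 0.42 (SE 0.56). Mphosph10 and Imp4, partners in 1 processome complex, differed by -0.34 (SE 0.35) and -0.28 (SE 0.35). Nat10, an RNA acetyltransferase, was the 1 gene of the class with a higher mutant mean, at 0.25 (SE 0.38), and its mutant values of 7.73 and 7.60 lay between control values of 7.08 and 7.76. The class median was -0.41 without mutant replicate 1, -0.42 with median centring and -0.40 with the mean of all kept probe sets, and 9 of 10 genes were lower in each. The number lower without overlap was less stable. It was 8 with values as deposited (14.9% of all genes), 5 with median centring (10.1%) and 5 with the mean of all kept probe sets (20.1%).

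All 12 genes of the large subunit had a lower mutant mean, 9 of them without overlap, with a median of -0.62. Gnl3 encodes nucleostemin, a nucleolar GTPase known from stem cells and proliferating cells. It read 9.68 and 9.67 in control crypts and 8.10 and 8.75 in mutant crypts. The controls were almost identical and both mutants were clearly below them, a 2.38-fold difference (-1.25, SE 0.36, limma adjusted p = 0.767). Nop2, a cytosine methyltransferase of the large subunit RNA, had deposited intensities of 213 and 197 in control crypts and 151 and 76.0 in mutant crypts (log2 difference -0.86, SE 0.35). Nop16, an assembly factor, read 8.20 and 7.47 in control crypts and 6.63 and 7.10 in mutant crypts (difference -0.97, SE 0.40). In both genes the difference between groups exceeded the gap within either, as it did for the assembly factors Rrs1 (-0.66, SE 0.31) and Ebna1bp2 (-0.66, SE 0.36).

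The PeBoW complex, made of Pes1, Bop1 and Wdr12, processes the large subunit precursor, and its members were not alike in their values. Wdr12 differed by -0.72 (SE 0.42) and Bop1 by -0.36 (SE 0.34), both without overlap. Pes1 differed by -0.13 (SE 0.44). Its mutant intensities of 178 and 261 lay on either side of the control intensities of 247 and 227, and its difference was 0.44 without mutant replicate 1. Of the exchange factors that move precursors through the nucleolus, Noc3l differed by -0.58 (SE 0.39) and Noc2l by -0.56 (SE 0.42). Rrp1b differed by -0.54 (SE 0.37) and the helicase gene Ddx18 by -0.37 (SE 0.38). Ddx18 and Noc2l overlapped between groups. Without mutant replicate 1 the class median was -0.40, with 10 of 12 genes lower. With median centring all 12 were lower, 6 of them without overlap, against 10.1% of all genes.

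Further probe sets gave a second reading of many of the same genes. Above the filter, 26 members had 32 further probe sets, with a median difference of -0.60. Of these, 17 showed both mutant arrays below both controls, against 19.2% of all genes kept, each read from 1 probe set. In 27 the sign was that of the main probe set. The 5 with the opposite sign included 1 each for Polr1c, Tcof1 and Nop10, genes whose main probe set was higher in mutant crypts. The second probe set of Polr1c read 7.70 and 7.63 in control crypts and 6.83 and 7.32 in mutant crypts (-0.59, SE 0.36). Those of Nop10 and Tcof1 gave -0.60 (SE 0.34) and -0.60 (SE 0.50). The other opposite signs belonged to Heatr1 and to 1 probe set of Noc4l (0.08, SE 0.36). With the mean of all kept probe sets of a gene, 38 of 39 members were lower, at a median of -0.57, against 49.8% of all genes. Of the members, 25 were then lower without overlap (64.1%), against 20.1% of all genes. Of the 39 main probe sets, 8 were of the kinds whose probes are marked as not unique to 1 transcript (6 with the suffix s and 2 with x). The 2 with x were those of Noc4l and Rrs1. The median of the 8 was -0.58, against -0.72 for the other 31.

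**Figure D3:**
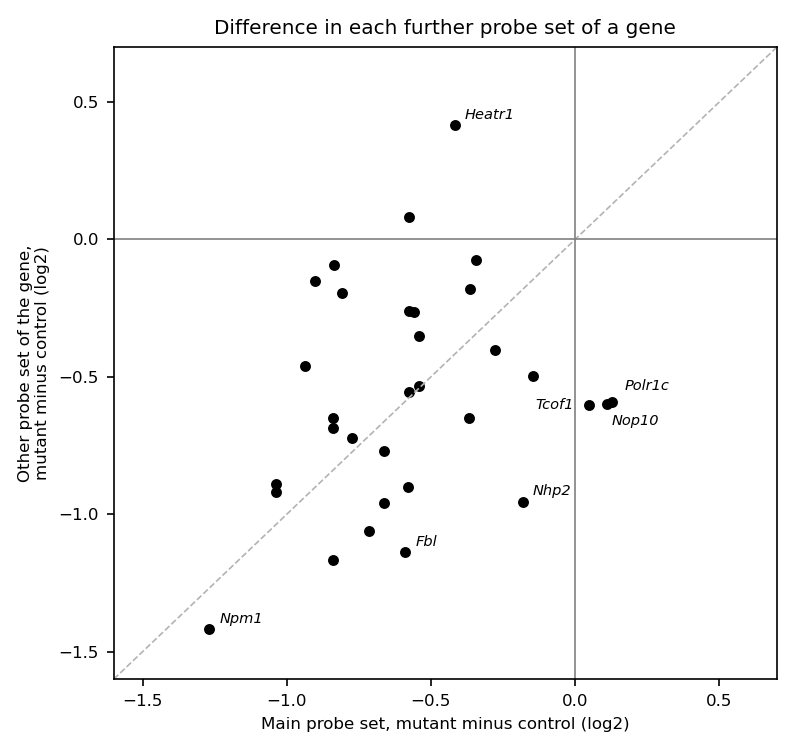
Difference between mutant and control means (log2) in the main probe set of a gene (horizontal) and in each further probe set above the filter (vertical); each of the 32 points is 1 further probe set, and the dashed line marks equal values. Points lie in the lower left quadrant for most genes, and Polr1c, Tcof1 and Nop10 lie in the lower right, with a further probe set near -0.60 and a main one at or above 0.05.

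Other genes of the pathway, listed by function, were mostly lower as well. Of 118 listed genes 113 were kept. Of these 92 were lower and 21 higher, 60 were lower without overlap and 3 higher without overlap. Their median difference was -0.44, and 0 passed the limma test in either direction (15 lower at an unadjusted p under 0.05). Over all genes kept, 19.2% were lower without overlap, 18.9% higher without overlap and 3.62% lower at that unadjusted limit. Of 41 other small subunit genes 32 were lower (median -0.40), of 42 large subunit genes 38 (median -0.60), and of 19 snoRNP assembly and exosome genes 17 (median -0.52). The RNA methyltransferase gene Dimt1 differed by -1.27 (SE 0.43) and Rcl1, a small subunit cleavage factor, by -1.01 (SE 0.35). The snoRNP assembly gene Naf1 differed by -1.27 (SE 0.42). Rpp40, a subunit of RNA-cleaving ribonucleoproteins, and Rpf2, a large subunit assembly factor, differed by -1.13 (SE 0.37) and -0.87 (SE 0.31). Exosc4, an exosome subunit, was higher by 2.61 (SE 0.89): its mutant values of 8.44 and 9.73 stood above control values of 4.92 and 8.04, which were themselves far apart. As among the members, polymerase I subunits and initiation factors were divided, with 5 of 11 lower and a median of 0.20. The lowest p there belonged to Twistnb (-0.63, SE 0.35) and Polr1e (-0.59, SE 0.36), both polymerase subunits.

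Genes of the ribosome's own proteins had medians nearer to 0. Of 45 cytosolic ribosomal protein genes 40 were lower, 17 without overlap, and their median was -0.20. Of 76 mitochondrial ribosomal protein genes 56 were lower, 20 without overlap, with a median of -0.13. In both lists 0 genes passed the limma test, with 3 and 1 lower at an unadjusted p under 0.05. Over all genes kept, 49.3% were lower, 19.2% were lower without overlap and 3.62% were lower at that unadjusted limit. The lists were set side by side without a test of their difference. Myc read 7.33 and 7.45 in control crypts and 6.61 and 7.05 in mutant crypts (difference -0.56, SE 0.36, limma adjusted p = 0.829), without overlap.

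Because Myc binds the E-box CACGTG, the promoters of the members were searched for it. The windows came from RefSeq (GRCm38.p6) and ran from 250 bases before to 50 bases after a start site, and 33 members had 1 or more. The E-box, which reads the same on both strands, was found in 5 of the 33 (15.2%), namely Imp4, Mybbp1a, Nop2, Pes1 and Wdr43. It was found in 8.09% of all 27025 genes with a window and in 11.8% of the 9248 of them that passed the filter here. CCGGAAG, a consensus form of sites for ETS factors, was found on either strand in 11 members (33.3%). Of the genes that passed the filter, 1853 of 9248 held it. The median GC content of the windows was 57.0% for members and 60.7% for genes that passed. These matches are letters in a window and are no evidence of binding. For 3 of the members with an E-box, chosen after their values were seen, the windows are shown, with the E-box in capitals. Nop2 and Wdr43 are genes whose groups did not overlap, and Pes1 is the member with an E-box whose groups did.
Nop2, chr6:125131633-125131932, plus strand: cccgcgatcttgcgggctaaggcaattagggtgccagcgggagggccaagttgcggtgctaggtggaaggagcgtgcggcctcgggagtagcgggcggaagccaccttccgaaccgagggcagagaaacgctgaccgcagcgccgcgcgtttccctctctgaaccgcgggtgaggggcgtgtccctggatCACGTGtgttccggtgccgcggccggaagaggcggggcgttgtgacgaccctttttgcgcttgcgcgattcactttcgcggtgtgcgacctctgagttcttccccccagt
Wdr43, chr17:71615965-71616264, plus strand: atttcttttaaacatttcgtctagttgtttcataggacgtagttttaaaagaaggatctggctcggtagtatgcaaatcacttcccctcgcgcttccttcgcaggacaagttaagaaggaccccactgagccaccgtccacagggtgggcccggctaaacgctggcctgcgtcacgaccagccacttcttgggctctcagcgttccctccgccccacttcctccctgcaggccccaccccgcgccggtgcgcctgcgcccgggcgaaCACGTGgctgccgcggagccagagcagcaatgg
Pes1, chr11:3963725-3964024, plus strand: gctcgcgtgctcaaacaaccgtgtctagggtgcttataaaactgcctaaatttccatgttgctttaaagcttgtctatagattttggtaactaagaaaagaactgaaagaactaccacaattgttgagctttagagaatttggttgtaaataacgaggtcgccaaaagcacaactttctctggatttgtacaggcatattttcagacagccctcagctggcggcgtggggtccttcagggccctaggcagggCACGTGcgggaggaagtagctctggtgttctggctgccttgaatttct
The first base of the E-box was at position -60 from the start site in Nop2, at 18 in Wdr43 and at 3 in Pes1, counting the start base as 1. Among the other members with an E-box it was at -121 in Imp4 and 41 in Mybbp1a. The Nop2 window also held CCGGAAG. Npm1 and Fbl were not matched, and the windows of Ncl, Gnl3, Dkc1 and Polr1b held neither CACGTG nor CCGGAAG.

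The direction of the members as a group held across the settings, while the number without overlap depended on the scaling. The median difference lay between -0.80 and -0.40 over 15 alternatives, and no member was called in any of them. Median centring in place of quantile normalization moved the median of all genes to 0.13 and that of the members to -0.48, with 34 members lower, against 39.4% of all genes, and 17 (43.6%) without overlap, against 10.1% of all genes. With the values as deposited 28 members were lower without overlap, against 14.9% of all genes. The smallest adjusted p of any member under any alternative was 0.355, for Npm1 without control replicate 2.

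**Figure D4:**
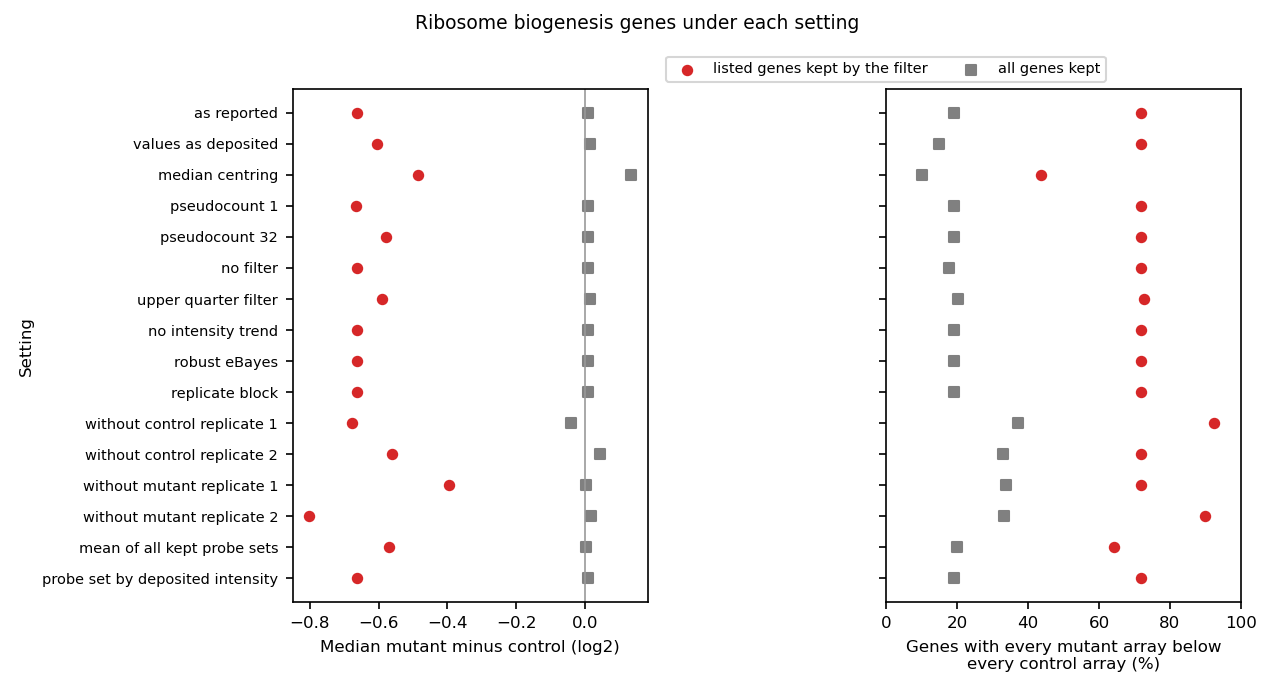
Left, median difference between mutant and control (log2) over the listed genes kept (red circles) and over all genes kept (grey squares) under each setting; right, share of genes with every mutant array below every control array. The red circles stay between -0.80 and -0.40 on the left, and on the right the share is lowest with median centring (43.6%, against 10.1% of all genes).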

How the data were processed

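Transcript levels were measured in 4 samples of laser-captured crypts (Pico isolation kit, 2 rounds of amplification, biotin label, per the labels). The authors deposited linear probe set intensities. Per the submitters' processing notes these come from MAS5, with no version or scaling target given in the sources used here. The members and lists were chosen with earlier results of these data known. Trimmed means of the arrays (2% trimmed) differed up to 1.53 times, so log2(intensity + 5), where 5 is the rounded 20th percentile, was quantile normalized; fold changes on this scale are understated for dim probe sets. Of 45037 probe sets other than 64 controls, 34945 had 1 gene symbol (platform annotation), 932 several and 9160 none. Those at or above the median mean signal (4.79) were kept: 22519 probe sets, 11395 genes.

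Groups were compared with limma 3.58.1 (R 4.3.3; lmFit, eBayes with trend, two-sided, 2 residual and 6.4 prior degrees of freedom). Each SE is from limma. Every array is given for Npm1, Ncl, Fbl and the 3 members of lowest p in each role class, and other genes by differences; further genes shown in the text by array were chosen after their values were seen. S6 kinases and a binding protein that match the ribosomal protein symbols were left out. On data simulated for this comparison (22519 probe sets, 10 runs), limma recovered 0.4% of 2-fold, 23.0% of 4-fold and 69.0% of 8-fold changes. The number of arrays limits the precision. Alternatives covered scaling, pseudocount (1 and 32), filter, trend, robust estimation, a replicate block, each array left out, and the choice of probe set.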

Additional observations from a re-analysis of the deposited data

How the results depend on the processing

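No member was called by limma under any of the 15 alternatives, and 30 of 39 kept their sign in all of them where they were measured. Probe sets called numbered 0 as reported, 2 with values as deposited, 102 with median centring, 1 with the replicate block and 0 to 90 with an array left out (90 without mutant replicate 2, 20 without mutant replicate 1). Members lower without overlap numbered 17 with median centring (10.1% of all genes) and 28 to 36 with an array left out. With only 3 arrays to compare, the share of all genes was then 33.0% to 37.1%, and the 36 members, without control replicate 1, stood against 37.1%. The sign turned with values as deposited for Nhp2 (0.062) and Tcof1 (-0.064), with median centring for Nhp2 (0.18), and with the mean of all probe sets for Nop10 (-0.24), Polr1c (-0.23) and Tcof1 (-0.28). With an array left out, values ran from -0.090 to 0.58 for Nat10, -0.27 to 0.49 for Nop10, -0.25 to 0.52 for Polr1c, -0.44 to 0.50 for Tcof1, -0.50 to 0.17 for Nhp2, -0.63 to 0.31 for Polr1a, -0.76 to 0.032 for Ddx18, -1.003 to 0.013 for Gar1 and -0.69 to 0.44 for Pes1; the cause was not tested. No label pairs the samples by replicate number. Over all probe sets, the differences between arrays 1 and 2 in control crypts and in the mutants correlated at 0.03. Among the members, array 1 was below array 2 for 26 in control crypts and for 29 in the mutants. Whether the members share an effect of the replicate number was not tested. The replicate block called 0 members and left all members' differences as reported. With 2 arrays a group, a simulated 2-fold change was recovered in 0.4% of cases, with 7.2 false calls per run. Each run changed 200 probe sets by 2-fold to 16-fold and drew variances from the fitted prior, so its setting differed from these data. The largest difference here, near 2.41-fold, was that of Npm1, with an SE of 0.24 against a median of 0.38 over all genes. How often the test recovers such a difference in these data was not tested.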
